A study of Mus musculus with 6 samples.

Results

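The 10 CC chemokine ligands examined here were Ccl2, Ccl3, Ccl4, Ccl5, Ccl6, Ccl7, Ccl8, Ccl9, Ccl12 and Ccl24. They were taken by Ensembl gene identifier from an array table of 27835 mouse genes, and all 10 were found, with 1 row each. The table holds identifiers only, so the symbols are those that came with the list of 10 identifiers. Expression was measured on 6 arrays of Kupffer cells, the macrophages resident in liver sinusoids, sorted from 3 mice. From every mouse came a monocyte-derived sample (mKC) and an embryonic one (eKC). The mKC gate took GFP+ tdTomato- cells and the eKC gate took GFP- tdTomato+ cells, both among CD45+ CD11b- cells positive for a macrophage antigen. All mice were C57Bl/6, carried CX3CR1-CreERT+/+ and Stopfl/fl tdTomato, and had received a treatment the labels call sRBC, so both populations share it and no untreated group was analysed here. The reporter rests on a Cre driven from CX3CR1, a gene of the monocyte and macrophage lineage, and the labels give neither the age of the mice nor the source of the GFP signal. Origin was thus assigned by gate, and in sorted bulk samples fewer expressing cells and less RNA per cell cannot be told apart. Defining markers of Kupffer cells and of other liver cells were not analysed here, because the table pairs no other identifier with a symbol.

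CC chemokines are small secreted proteins, named for a pair of adjacent cysteines, that bind G protein-coupled receptors on leukocytes and steer their migration. Ccl2, Ccl7 and mouse Ccl12 act through CCR2, the receptor that brings monocytes into tissue. Ccl3, Ccl4 and Ccl5 attract monocytes, T cells and natural killer cells, and Ccl3 and Ccl5 act through CCR1. Ccl6 and Ccl9 are rodent ligands of CCR1, mouse Ccl8 is a ligand of CCR8, and Ccl24 is an eotaxin, which attracts eosinophils through CCR3. In the liver, Kupffer cells are known as a source of several of these ligands after injury.

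The values are the authors' log intensities. Base 2 was taken from their range, so 1 unit is read as a 2-fold step. The comparison of mKC with eKC asked whether Kupffer cells of different assigned origin, within the same liver, differed in their chemokine transcripts. Of the 10 ligands, 1 passed the threshold, an adjusted p under 0.05 in limma with the animal as a block. That gene was Ccl24, which was lower in mKC. Among all 27835 genes, 0.823% passed as lower in mKC and 1.82% in either direction. No ligand passed as higher in mKC in the limma fit, where 0.995% of all genes did. The shares of all genes in this paragraph include genes of low intensity, since no intensity filter was used. At an unadjusted p under 0.05 in limma there were 4 of the 10, against 11.7% of all genes. Of these, 3 were higher in mKC (Ccl3, Ccl4 and Ccl5), against 6.33% of all genes, and 1 was lower (Ccl24), against 5.41%. Ccl3 and Ccl4, a pair of neighbouring genes, had the largest measured differences of the list, at 1.82-fold and 1.85-fold, and missed the threshold. The median difference of the 10 ligands, mKC minus eKC, was 0.12 on the log2 scale, and that of all genes was -0.0079. The sign was positive for 6 ligands and negative for 4, while 47.8% of all genes had a positive sign. The ligands were chosen with earlier results of these data known, so these counts describe the list and do not test it.

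**Figure D1:**
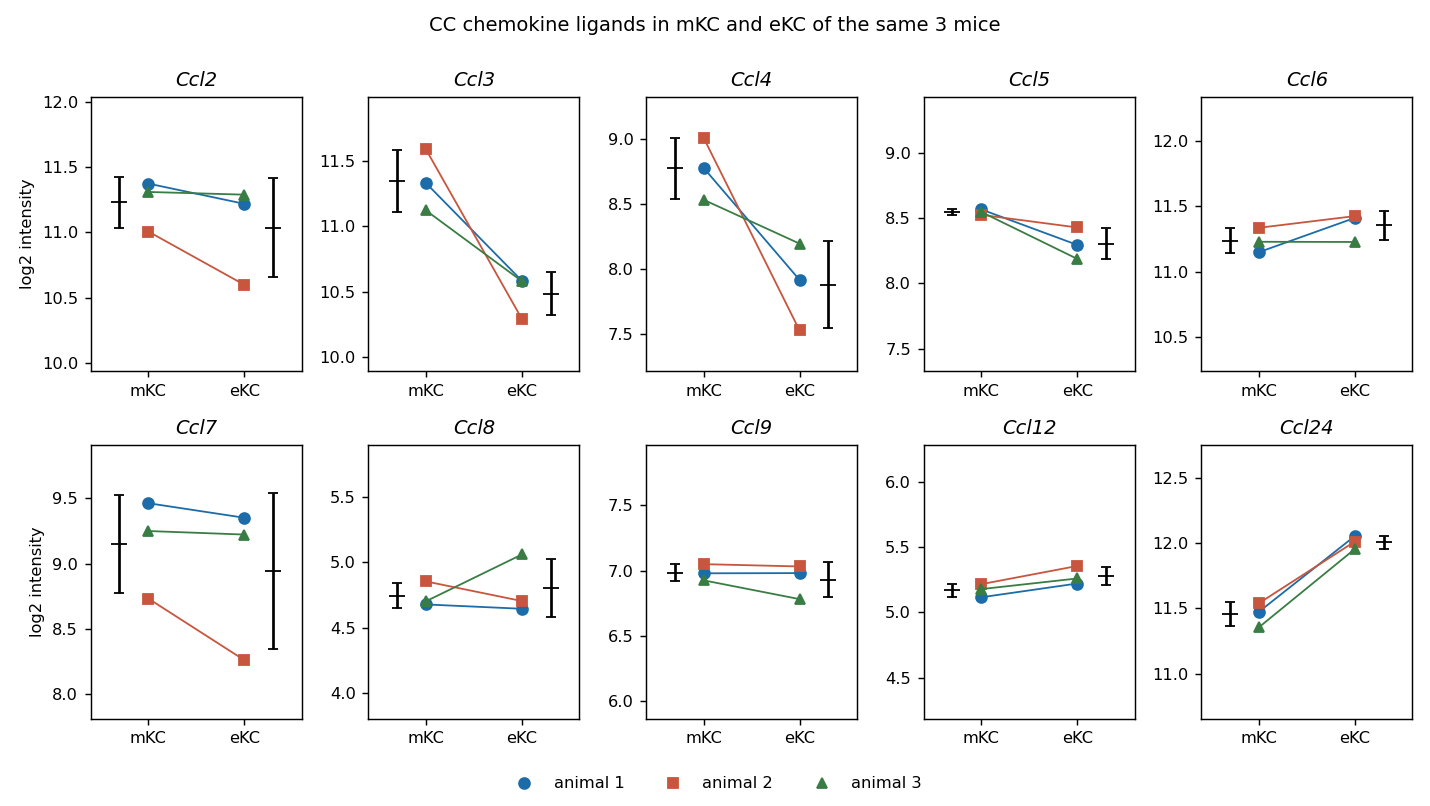
Log2 intensity of the 10 CC chemokine ligands on each array, with mKC at the left and eKC at the right of each panel and a line joining the 2 populations of 1 animal. Black bars give the mean ± SD of 3 animals, and every panel spans the same log2 range. Ccl24 lies lower in mKC in all 3 animals, Ccl3 and Ccl4 lie higher, and Ccl2 and Ccl7 are lowest in animal 2 in both populations.

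Ccl24 (ENSMUSG00000004814), the eotaxin of the list, had log2 intensities of 11.47, 11.54 and 11.36 in the mKC of animals 1, 2 and 3, against 12.06, 12.01 and 11.96 in their eKC. The highest mKC array lay below the lowest eKC array, so the populations did not overlap. The mean was 11.46 ± 0.0935 in mKC and 12.01 ± 0.0501 in eKC (SD, n = 3 each). The difference was -0.55 ± 0.0917 (SE), which puts the mKC level at 0.682 of the eKC level, with a 95% confidence interval of 0.585 to 0.796 (limma, adjusted p = 0.0480). Within animals the difference was -0.58, -0.47 and -0.60 in animals 1, 2 and 3. Its p ranked 486th among all genes, of which 506 passed, so Ccl24 stood close to the threshold. With any 1 animal left out the difference stayed between -0.59 and -0.53, but it no longer passed, with adjusted p of 0.231, 0.102 and 0.256 without animals 1, 2 and 3 (limma, 1 residual degree of freedom). On its arrays Ccl24 lay between percentiles 98.6 and 99.3 of all genes, among the brightest signals in both populations. Ccl24 is also the 1 ligand of the list that lies on chromosome 5, while the other 9 lie on chromosome 11.

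**Figure D2:**
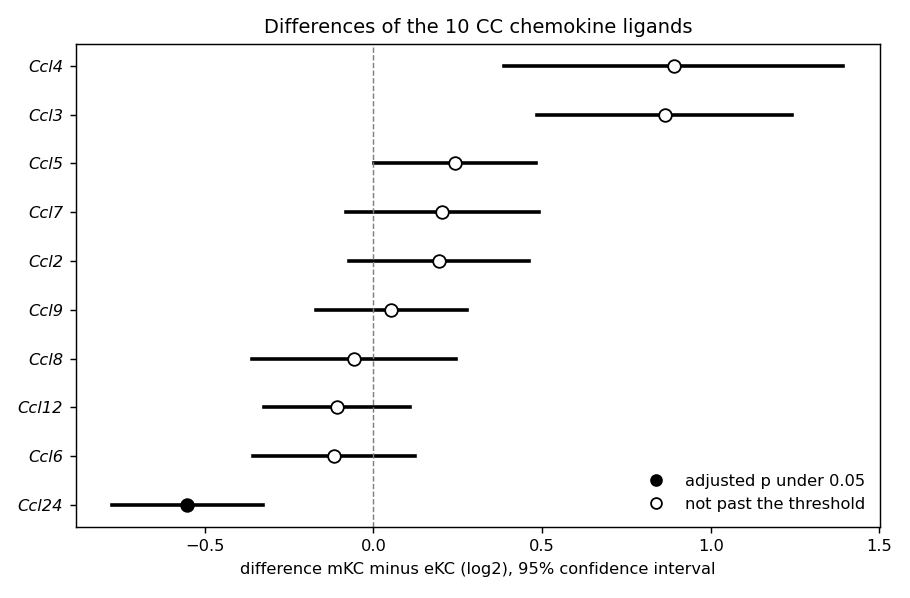
Difference of mKC minus eKC on the log2 scale for each ligand (points) with the 95% confidence interval from limma (lines), ordered from the highest at the top. The filled point marks Ccl24, the 1 ligand past the threshold, and the interval of Ccl5 starts at 0.0022, just above 0. The intervals are per gene and not adjusted for the number of genes.

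Ccl3 and Ccl4 encode macrophage inflammatory proteins, which attract monocytes and lymphocytes. Ccl3 (ENSMUSG00000000982) had log2 intensities of 11.33, 11.59 and 11.12 in the mKC of animals 1, 2 and 3, against 10.58, 10.29 and 10.58 in their eKC. All 3 mKC arrays lay above all 3 eKC arrays. The mean was 11.35 ± 0.234 in mKC and 10.49 ± 0.168 in eKC (SD, n = 3 each), and the difference was 0.86 ± 0.156 (SE), a ratio of 1.82 with a 95% confidence interval of 1.40 to 2.37 (limma, adjusted p = 0.0621). Its p ranked 584th among all genes, behind the 506 that passed. Without the block, with the arrays treated as unpaired, Ccl3 passed at an adjusted p of 0.0196 in limma. It also passed in some fits that kept the block, such as median centring (limma, adjusted p = 0.0156), and not in others. Its call thus depends on the fit, and not only on how the pairing by animal enters it.

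Ccl4 (ENSMUSG00000018930) showed the same arrangement of the arrays. It had 8.78, 9.01 and 8.53 in the mKC of animals 1, 2 and 3, against 7.92, 7.53 and 8.20 in their eKC, again with no overlap. The mean was 8.77 ± 0.237 in mKC and 7.88 ± 0.334 in eKC (SD, n = 3 each). The difference was 0.89 ± 0.207 (SE), a ratio of 1.85 with a 95% confidence interval of 1.31 to 2.63 (limma, adjusted p = 0.137). By the size of their differences, both genes lay in the top 1.27% of the table, with Ccl4 in the top 1.17%.

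The animals ranked alike for this pair. By signed difference, Ccl2, Ccl7, Ccl8 and Ccl24 had the same order of animals, so it was not particular to Ccl3 and Ccl4. The difference in animal 2 was 1.30 for Ccl3 and 1.48 for Ccl4, in animal 1 it was 0.75 and 0.86, and in animal 3 it was 0.54 and 0.34. Animal 2 had the highest mKC value and the lowest eKC value of both genes. Without animal 2 the difference of Ccl3 was 0.65 (limma, adjusted p = 0.0992) and that of Ccl4 was 0.60 (limma, adjusted p = 0.233). Without animals 1 and 3 the difference of Ccl3 was 0.92 and 1.02 (limma, adjusted p = 0.154 and 0.129). That of Ccl4 was 0.91 and 1.17 (limma, adjusted p = 0.336 and 0.111). Both genes kept their sign whichever animal was left out, and neither passed, as in the fit of all arrays.

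Ccl3 and Ccl4 sit side by side on mouse chromosome 11, with no entry between them in RefSeq's gene table (GRCm38.p6). They close a block that runs Ccl5, Ccl9, Ccl6, Ccl3, Ccl4, in which no more than 2 entries separate neighbouring ligands of the list. The order on the chromosome was not used to choose the genes. Of this block, Ccl3, Ccl6 and Ccl9 have a start-site window in the RefSeq sequence table. The 250 bases before each start are shown, because the measured difference was 0.86 for Ccl3 and -0.12 and 0.05 for its neighbours Ccl6 and Ccl9. All are on the minus strand of GRCm38.p6, at chr11:83649379-83649628 for Ccl3, chr11:83593088-83593337 for Ccl6 and chr11:83578637-83578886 for Ccl9, and are written 5′ to 3′ on the strand of the gene. Capitals mark matches to 2 motifs, the TATA motif TATAA on the gene's strand and the AP-1 motif TGANTCA on either strand.
Ccl3: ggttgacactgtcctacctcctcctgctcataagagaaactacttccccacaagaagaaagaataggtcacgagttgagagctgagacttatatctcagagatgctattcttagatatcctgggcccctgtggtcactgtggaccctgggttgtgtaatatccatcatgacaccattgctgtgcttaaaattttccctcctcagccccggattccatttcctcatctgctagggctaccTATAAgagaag
Ccl6: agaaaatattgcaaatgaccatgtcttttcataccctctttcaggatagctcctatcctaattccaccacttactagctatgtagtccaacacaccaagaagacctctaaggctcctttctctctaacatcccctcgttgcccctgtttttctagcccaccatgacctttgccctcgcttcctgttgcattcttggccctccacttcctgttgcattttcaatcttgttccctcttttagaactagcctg
Ccl9: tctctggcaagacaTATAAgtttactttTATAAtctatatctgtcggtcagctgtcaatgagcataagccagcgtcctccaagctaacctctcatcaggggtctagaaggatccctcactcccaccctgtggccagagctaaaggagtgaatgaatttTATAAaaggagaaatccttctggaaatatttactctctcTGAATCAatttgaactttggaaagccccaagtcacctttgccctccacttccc

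The window of Ccl3 held TATAA from 11 to 7 bases before the start and no AP-1 match. That of Ccl9 held TATAA at 3 places, the nearest from 92 to 88 bases before the start, and an AP-1 match from 53 to 47 bases before it. None of these matches overlapped another. The window of Ccl6 held neither motif. Over all 32851 windows of the same length in the table, 16.0% held TATAA and 6.75% the AP-1 motif. TATAA was also found in the windows of Ccl8 and Ccl12, from 32 to 28 and from 31 to 27 bases before the start, so 4 of the 5 ligands with a window held it. In global alignments the windows of Ccl8 and Ccl12, direct neighbours on the chromosome, were 54.5% identical, and the other 9 pairs were 43.9% to 50.6% identical. The identity of unrelated windows was not measured, so these percentages do not show relatedness. The motif matches and identities describe the letters of the windows and were not tested against the expression values.

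**Figure D3:**
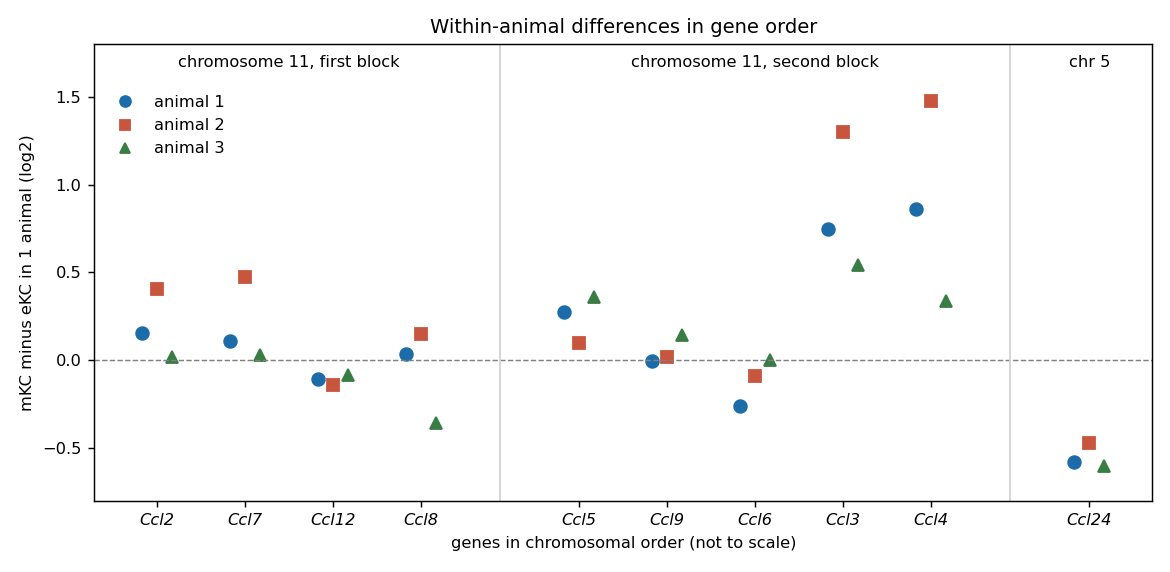
Difference of mKC minus eKC within each of the 3 animals on the log2 scale, for the ligands in their order along chromosome 11 (in 2 blocks) and for Ccl24 on chromosome 5. Distances along the axis are not to scale. Ccl3 and Ccl4 lie highest in animals 1 and 2, while in animal 3 Ccl5 (0.36) lies above Ccl4 (0.34). Ccl24 lies below 0 in all 3 animals, and animal 2 gives the highest value for Ccl2, Ccl7, Ccl8, Ccl3, Ccl4 and Ccl24.

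The remaining ligands of that block showed small differences. Ccl5 (ENSMUSG00000035042), a chemokine for T cells and monocytes, had 8.57, 8.53 and 8.55 in the mKC of animals 1, 2 and 3, against 8.29, 8.43 and 8.19 in their eKC. The mKC arrays lay above the eKC arrays without overlap, with a mean of 8.55 ± 0.0209 in mKC and 8.30 ± 0.121 in eKC (SD, n = 3 each). The difference was 0.24 ± 0.0991 (SE), a ratio of 1.18 with a 95% confidence interval of 1.00 to 1.40, and did not pass (limma, adjusted p = 0.419). Its order of animals ran against that of Ccl3 and Ccl4, with 0.36 in animal 3, 0.27 in animal 1 and 0.097 in animal 2.

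Ccl6 and Ccl9, the rodent ligands of CCR1, differed little between the populations. Ccl6 (ENSMUSG00000018927) averaged 11.24 ± 0.0938 in mKC and 11.35 ± 0.111 in eKC (SD, n = 3 each), and Ccl9 (ENSMUSG00000019122) averaged 6.98 ± 0.0623 in mKC and 6.93 ± 0.132 in eKC. The mKC level of Ccl6 was 0.922 of the eKC level with a 95% confidence interval of 0.780 to 1.09, and that of Ccl9 was 1.04 times the eKC level with an interval of 0.888 to 1.21 (limma, adjusted p = 0.750 and 0.896). These intervals exclude a 2-fold change either way for both genes, though not a smaller one. No test was made of whether the differences of Ccl3 and Ccl4 exceed those of their neighbours.

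The other block of chromosome 11 holds Ccl2, Ccl7, Ccl12 and Ccl8, and Ccl2 and Ccl7 are direct neighbours in it. Among the genes of this block, Ccl2, Ccl7 and Ccl12 signal through CCR2, while mouse Ccl8 is a ligand of CCR8. Ccl2 (ENSMUSG00000035385) had 11.37, 11.01 and 11.31 in the mKC of animals 1, 2 and 3, against 11.22, 10.60 and 11.29 in their eKC. The populations overlapped, and the array of animal 2 was the lowest in each. The difference was 0.19 ± 0.110 (SE), a ratio of 1.14 with a 95% confidence interval of 0.951 to 1.38 (limma, adjusted p = 0.591). Ccl7 (ENSMUSG00000035373) had 9.46, 8.73 and 9.25 in the mKC of animals 1, 2 and 3, against 9.35, 8.26 and 9.22 in their eKC. It overlapped in the same way, with a difference of 0.20 ± 0.118 (SE) and a ratio of 1.15 with a 95% confidence interval of 0.944 to 1.40 (limma, adjusted p = 0.604).

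For Ccl2 and Ccl7 the means of the mice lay further apart than those of the populations. The same was true of Ccl6, Ccl8, Ccl9 and Ccl12, so it was not particular to Ccl2 and Ccl7. For Ccl8 the means of animals 1, 2 and 3 were 4.66, 4.78 and 4.88, with a population difference of -0.058. Averaged over both populations, Ccl2 stood at 10.80 in animal 2, against 11.30 in each of animals 1 and 3, and Ccl7 stood at 8.50 in animal 2, against 9.41 and 9.24. The mean of animal 2 minus that of animals 1 and 3 was -0.50 for Ccl2 and -0.83 for Ccl7 on the log2 scale, while for the other 8 ligands the same contrast lay between -0.087 and 0.13. An F test of the animal term, chosen after these values were seen, gave an unadjusted p of 0.0145 for Ccl2 and 0.0014 for Ccl7. In this limma test 2 of the 10 ligands were under an unadjusted p of 0.05, against 4.71% of all genes. After adjustment over all genes neither passed (limma, adjusted p = 0.977 and 0.767), and 0 of the 27835 genes did. Both arrays of animal 2 gave these low values, and within animal 2 the mKC value was above the eKC value by 0.41 for Ccl2 and 0.47 for Ccl7, against 0.021 to 0.16 in the other animals.

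Ccl12 and Ccl8, the other genes of this block, lay near the middle of the intensity scale. Ccl12 (ENSMUSG00000035352) lay between percentiles 48.2 and 52.3 of its arrays and Ccl8 (ENSMUSG00000009185) between percentiles 37.5 and 46.3. The table gives no detection call, so neither was shown to be above background, and RMA can compress differences at such intensities. Ccl12 had 5.12, 5.22 and 5.18 in the mKC of animals 1, 2 and 3, against 5.22, 5.36 and 5.26 in their eKC. The mKC arrays all lay below the eKC arrays, by a narrow margin, with a difference of -0.11 ± 0.0894 (SE) that did not pass (limma, adjusted p = 0.739). Ccl8 averaged 4.74 ± 0.0957 in mKC and 4.80 ± 0.225 in eKC (SD, n = 3 each), overlapped and changed sign between animals, with a difference of -0.058 ± 0.125 (SE) (limma, adjusted p = 0.919).

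The list can also be read by overlap, sign and range over the arrays. The shares of all genes given here include genes of low intensity. As the ligands were chosen with earlier results of these data known, the counts beside these shares are a description and not a test. Groups that did not overlap were seen in 5 of the 10 ligands, against 17.7% of all genes. They were 3 higher in mKC (Ccl3, Ccl4 and Ccl5), against 8.91% of all genes, and 2 lower (Ccl12 and Ccl24), against 8.82%. The sign was the same in all 3 animals for 7 of the 10, against 33.0% of all genes. Of these, 5 were higher in mKC (Ccl2, Ccl3, Ccl4, Ccl5 and Ccl7), against 16.1% of all genes, and 2 were lower (Ccl12 and Ccl24), against 16.9%. A shared sign can rest on a small difference, as in animal 3 for Ccl2 (0.021) and Ccl7 (0.027). Ccl6, Ccl8 and Ccl9 had mixed signs. Over the 6 arrays the whole range of a ligand ran from 0.240 for Ccl12 to 1.48 for Ccl4 on the log2 scale. Ccl3 and Ccl7 also exceeded a range of 1, at 1.30 and 1.20. For Ccl3 and Ccl4 that range lay between the populations of animal 2, while for Ccl7 it lay between the mKC of animal 1 and the eKC of animal 2.

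By position on the intensity scale of the array, Ccl2, Ccl3, Ccl6 and Ccl24 lay above the 95th percentile of all genes on all 6 arrays, which stood at 10.07 to 10.10. Ccl4, Ccl5 and Ccl7 lay between percentiles 75.9 and 91.7, and Ccl9 between percentiles 69.2 and 71.5. Different genes are read by different probes, so these positions do not order the ligands by RNA amount. The probe sequences were not used here, and cross-hybridization between related ligands was not tested.

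**Figure D4:**
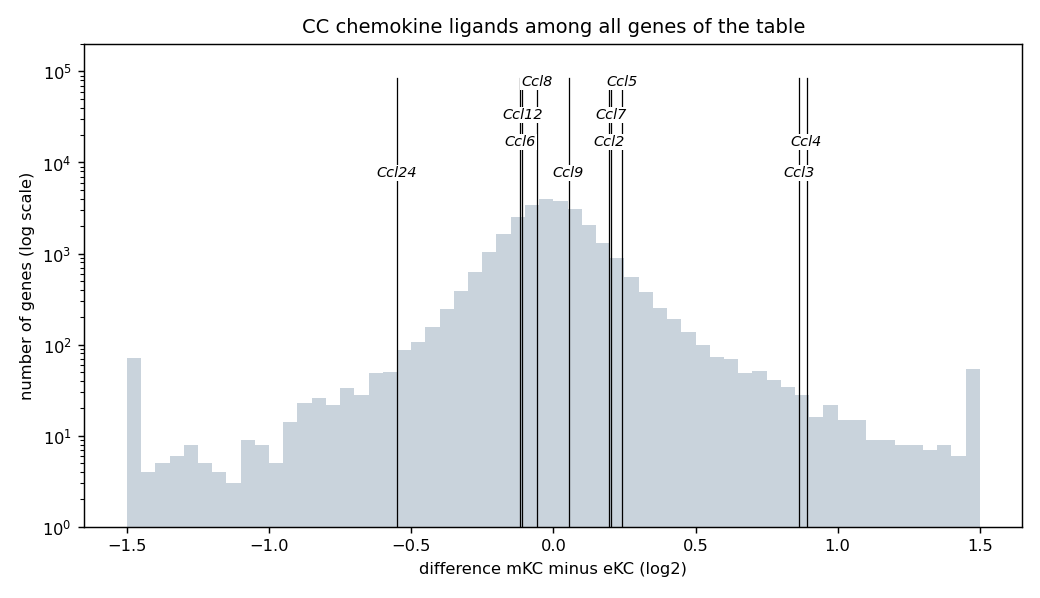
Distribution of the difference mKC minus eKC on the log2 scale over all 27835 genes, as the number of genes on a log axis, with a vertical line for each CC chemokine ligand. The end bins also hold the 116 genes that lie beyond them. Ccl3 and Ccl4 stand far out on the right flank and Ccl24 on the left, while the other 7 lie between -0.12 and 0.24.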

How the data were processed

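The authors deposited 1 table of log2 intensities, 1 value per Ensembl gene and array, made with RMA per the submitters' processing notes. RMA corrects background, normalizes arrays by quantiles and summarises probes; base 2 was taken from the range of the values, while the software version, the probe definition and the build stay unknown (not given in the sources used here). Per the labels, 50000 cells were sorted per sample and 2 ng of total RNA was amplified. For arrays, the number of animals limits the precision.

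The whole table of 27835 genes entered 1 fit in limma 3.58.1 (R 4.3.3; functions lmFit and eBayes) as mKC minus eKC, blocked by animal because the design text pairs the samples by mouse. There were 2 residual and 4.21 prior degrees of freedom. P-values were two-sided and adjusted by Benjamini-Hochberg over all genes, with 0.05 as threshold and no intensity filter. Deviations of paired arrays from their group means correlated at -0.0323, 0.0258 and -0.0188 in animals 1, 2 and 3, so the pairing rests on the mice, not on the values.

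The members and lists were chosen with earlier results of these data known. All 10 members are named, with array values for those past the threshold, differing by at least 0.5 or of one sign in all animals. Planned lists of CC receptors, other CC ligands and cell type markers, and the search for genes with a similar pattern, need symbols and were not run: the reference gene table of 49997 genes held 0 Ensembl identifiers. All 10 symbols were found in it, and 5 had a RefSeq start-site window, aligned with Biopython 1.88. The alternatives were the fit without the block, a random animal effect, each animal left out, quantile normalization, median centring, 2 intensity filters, array weights, and robust estimation with an intensity trend.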

Additional observations from a re-analysis of the deposited data

How the results depend on the processing

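The number of ligands past the threshold was 1 (0 higher and 1 lower in mKC) and depended on the fit. It was 2, with 1 higher and 1 lower, with no replicate block, with the animal as a random effect, with the lowest 30% or 50% of genes left out, and with an intensity trend and robust estimation. It was 3, with 2 higher, under median centring. Leaving out 1 animal gave 0 in every case, both higher and lower. Quantile normalization and array weights gave 1. Calls over the whole table moved too. They were 506 of 27835 genes in the fit reported, and 608 with no replicate block, 546 with the random effect, 705 with the trend, 631 under median centring, 473 under quantile normalization and 588 with array weights. They were 574 of 19484 and 583 of 13917 genes with the 2 filters, and 252, 369 and 171 without animals 1, 2 and 3. The added call was Ccl3 in each case, with limma adjusted p of 0.0196 with no replicate block, 0.0211 with the random effect, 0.0156 under median centring, 0.0485 and 0.0422 with the 2 filters and 0.0126 with the trend, and Ccl4 passed only under median centring (0.0439). Over 11 alternatives Ccl3 passed in 6, Ccl4 in 1 and Ccl24 in 8, the exceptions for Ccl24 being the 3 that leave out an animal. Differences ran from 0.65 to 1.02 for Ccl3, 0.60 to 1.17 for Ccl4 and -0.59 to -0.53 for Ccl24. The other 7 ligands passed in none, and only Ccl8 changed sign, in 1 of its 10 alternatives. Ccl8 and Ccl12 were not tested with the lowest 50% of genes left out. The cause of the changed calls was not tested. By construction, leaving out an animal lowers the residual degrees of freedom, and a filter lowers the number of genes tested. The table gives no signal over background, which limits what can be said of Ccl8 and Ccl12.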
